A study of Mus musculus with 2 samples.

Results

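Secretoglobin genes encode small proteins that epithelial cells release onto mucosal surfaces, and 4 of them were followed here in the injured mouse lung: *Scgb1a1* (ENSMUSG00000024653), *Scgb3a2* (ENSMUSG00000038791), *Scgb3a1* (ENSMUSG00000064057) and *Scgb1c1* (ENSMUSG00000038801). They were taken by symbol from both count matrices and are 4 of the 31053 genes measured. Another 30 symbols beginning with Scgb were listed in the matrices. Of these, 25 had no UMI at all, and the remaining symbols held 4 UMIs in *Pclaf* WT and 3 in *Pclaf* KO. Lungs came from mice of 8 to 10 weeks, either *Pclaf* WT or *Pclaf* KO, and both genotypes had received bleomycin, a drug that injures the alveolar epithelium, 1 week earlier. The KO is a germline deletion present in every cell. The number of animals pooled per library is not given in the sources used here. Cells were sorted as EpCAM+ CD31- CD45- and measured with 10x Genomics 3′ v3.1 droplets, 1 library per genotype. No comparison of genotypes therefore has a replicate check, no test was made, and every interval covers counting error only.

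Secretoglobins are best known from the conducting airways. *Scgb1a1* encodes the club cell secretory protein, which lines the bronchioles and is regarded as anti-inflammatory and protective, and its promoter is widely used to mark club cells. *Scgb3a2* is a product of airway secretory cells that appears early in lung development, under control of the lineage factor NKX2-1. *Scgb3a1* is made by secretory cells of the larger airways together with mucins and antimicrobial proteins, and *Scgb1c1* is known mainly from the olfactory mucosa. AT2 cells, by contrast, are the alveolar cells that make surfactant. Because airway secretions are very abundant, RNA released from broken cells can enter droplets with other cells, so each level is set beside that in non-epithelial cells of the same library, where airway secretions are not made to any known extent.

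The libraries differed in ways that bear on every value below. Each library held more barcodes than the number of cells that the protocol gives as loaded per group. After filtering, 30187 WT and 15637 KO barcodes remained, with a median of 2127 and 5957 UMIs. In spite of the sort, the non-epithelial share was 94.3% in WT against 28.7% in KO. This left 1721 and 11148 cells outside the non-epithelial classes. They include 33 and 7 unnamed cells, and in WT 47 cycling cells of a cluster with endothelial genes, described below. *Pclaf*, the targeted gene, had 39.3 counts per 1000000 UMIs of the group (CPM) in WT, against 5.19 CPM in the KO library. In the cells outside the non-epithelial classes it had 20.2 and 4.80 CPM, so the WT value is not that of epithelial cells alone. How the deletion lies relative to the 3′ end that the kit reads is not given in the sources used here. The methods describe male mice, and *Xist*, an RNA of female cells, was detected, with 254 CPM in WT against 498 CPM in the other library. Both libraries held 163 barcodes in common, which carried 0.187% of the WT and 0.425% of the KO *Scgb1a1* UMIs. Doublets called by Scrublet, 8.37% of WT and 2.70% of KO cells, were kept in the main values.

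Sequence just upstream of the start was at hand for *Scgb3a1* and *Scgb1c1* and shows what a motif search found there. *Scgb3a1* lies on chromosome 11 at 49663610-49665118 on the plus strand, with 4 exons in its longest transcript, and *Scgb1c1* on chromosome 7 at 140845547-140846769 on the plus strand, with 3 exons (GRCm38, GENCODE). *Scgb1a1* is on chromosome 19 at 9083636-9087958 on the minus strand, with 3 exons. Promoter entries matched 2 of the 4 genes. The 250 bases before the RefSeq start (GRCm38.p6, plus strand, chr11:49663345-49663594 and chr7:140845315-140845564) are printed 5′ to 3′, with the NKX2-1 core motif in capitals.
Scgb3a1: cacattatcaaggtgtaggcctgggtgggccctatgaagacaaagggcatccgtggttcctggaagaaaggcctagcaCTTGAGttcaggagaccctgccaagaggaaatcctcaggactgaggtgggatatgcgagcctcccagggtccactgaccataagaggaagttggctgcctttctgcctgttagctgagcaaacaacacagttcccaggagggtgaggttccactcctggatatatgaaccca
Scgb1c1: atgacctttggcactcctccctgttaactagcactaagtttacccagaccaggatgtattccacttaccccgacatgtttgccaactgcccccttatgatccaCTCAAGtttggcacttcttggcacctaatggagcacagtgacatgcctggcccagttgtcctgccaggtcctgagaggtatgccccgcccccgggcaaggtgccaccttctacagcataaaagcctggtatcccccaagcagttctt
Both strands were searched for the NKX2-1 core CTCAAG, the forkhead core TGTTTAC, the C/EBP core TTGCNNAA and the TATA box TATAAA. The NKX2-1 core was the only match in either window. It lay on the minus strand of *Scgb3a1*, 172 to 167 bases before the start, where the plus strand reads CTTGAG, and on the plus strand of *Scgb1c1*, 147 to 142 bases before the start. Of all 32851 promoter windows of this length, 13.3% held CTCAAG, 3.17% TGTTTAC, 9.56% TTGCNNAA and 12.4% TATAAA, so that a match is common and describes letters only.

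Most UMIs of *Scgb1a1*, *Scgb3a2* and *Scgb3a1* fell on airway secretory cells in both libraries. Cells were clustered without the secretoglobins among the variable genes, and clusters were named from marker lists that hold no secretoglobin. Club-like cells numbered 54 in WT and 385 in KO, and goblet-like cells 113 and 534. Goblet-like cells held 72.0% of the *Scgb1a1* UMIs of the WT library and 69.8% of the KO library. Club-like cells held 7.89% and 19.9%. Goblet-like and club-like cells held 78.0% and 5.27% of the *Scgb3a2* UMIs in WT, and 77.2% and 16.7% in KO. For *Scgb1c1* the same classes held 33.1% and 3.79% in WT and 18.6% and 9.06% in KO, so that this gene was spread more widely. Together the 4 genes made up 48.4% and 53.0% of all UMIs in club-like cells and 39.7% and 42.3% in goblet-like cells.

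The names of these airway classes need a qualification. Club-like cells were shallow, with a median of 1648 UMIs and 443 genes in WT and 3051 UMIs and 530 genes in KO. *Malat1*, a nuclear RNA, was at 168 and 566 CPM there, against 9118 and 8497 CPM in goblet-like cells, which had medians of 11399 and 14208 UMIs. *Cyp2f2*, the cytochrome that defines club cells, was at 1454 and 1017 CPM in club-like and at 3956 and 3924 CPM in goblet-like cells. Per UMI outside the secretoglobins, 8 of 11 measured club markers in WT and 9 of 12 in KO were higher in the goblet-like class, with median log2 ratios of 0.43 and 0.75, below the medians of all genes, 1.09 and 1.53. Its mucin *Muc5b* was at 281 and 411 CPM. By *Cyp2f2* the goblet-like class was not free of club markers. Most of its cells, 76 of 113 in WT and 302 of 534 in KO, had 0 *Scgb3a1* UMIs. Those cells held 3637 and 16513 *Cyp2f2* UMIs. Of the goblet markers, they held 0 and 26 *Bpifb1*, 0 and 245 *Reg3g* and 18 and 138 *Muc5b* UMIs. They also held 109 and 740 *Lypd2*, 37 and 588 *Ltf*, 4 and 534 *Bpifa1* and 1 and 11 *Tff2* UMIs. In most of the class these goblet markers were thus present to unlike extents, and each was scarce beside *Cyp2f2*. The shares of *Scgb1a1* UMIs given for the class are therefore not those of goblet cells alone. A smaller cluster within the goblet-like class, 20 WT and 5 KO barcodes, was led by *Scgb3a1* together with the immune genes *Ptprc*, *Spp1* and *Gpnmb*.

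*Scgb1a1* was the leading transcript of both secretory classes. It took up 468584 CPM (95% interval 464702 to 472490) in WT club-like cells and 512439 CPM (95% interval 511401 to 513478) in KO. In goblet-like cells it was at 371785 CPM (95% interval 370765 to 372808) and 397850 CPM (95% interval 397420 to 398281). Its share of a single cell's UMIs varied widely, with a median of 42.5% and an interquartile range of 21.8% to 55.7% in WT club-like cells, and 44.7% (30.7% to 58.4%) in KO. Goblet-like cells had medians of 32.8% (19.4% to 45.2%) and 35.0% (17.9% to 48.9%). The spread between cells of a library was thus far larger than the difference between the libraries. The highest cell carried 26193 *Scgb1a1* UMIs, in the KO goblet-like class.

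Outside the secretory classes *Scgb1a1* was found in nearly every kind of cell, and its level there was higher in KO than in WT in most classes. Non-epithelial cells were at 1080 (WT) and 6493 CPM (KO), AT2-like cells at 1862 and 2603 CPM, and Krt8+-like transitional cells at 2234 and 5430 CPM. A UMI was seen in 40.2% of WT and 98.0% of KO non-epithelial cells, at median depths of 2080 and 4156 UMIs. In AT2-like cells the shares were 55.1% and 99.4%, at median depths of 4587 and 6750 UMIs. With every cell thinned to 1000 UMIs, and shallower cells left out, the shares became 18.5% (interval 17.9 to 19.0) over 21385 WT and 70.7% (interval 69.2 to 72.2) over 3763 KO non-epithelial cells. They became 21.8% (interval 18.4 to 25.5) over 537 and 69.1% (interval 67.9 to 70.2) over 6572 AT2-like cells. In KO, the library with more secretory cells, the AT2-like share did not exceed that of the pooled non-epithelial cells, which should lack the gene. Whether the AT2-like UMIs are free RNA was not tested. In WT the AT2-like share was above the non-epithelial one, with intervals that overlap. AT1-like cells were at 885 and 4764 CPM, cycling cells at 405 and 24167 CPM, neuroendocrine-like cells at 7176 and 1931 CPM and mesothelial cells at 1505 and 1095 CPM. Single barcodes carried both WT values just given: 1 of 6 neuroendocrine-like cells held 97.0% of the class sum and 1 of 109 mesothelial cells, called a doublet, held 91.2%. With the top 1% left out, the order of the libraries turned, to 271 and 1189 CPM in neuroendocrine-like and 129 and 1055 CPM in mesothelial cells. In the KO cycling class, 13 of 252 barcodes, 0 of them called doublets, held 90.3% of the sum. There the order of the libraries stayed with the top 1% left out, at 251 and 14430 CPM. Some of those 13 barcodes stayed in after that trim, so it cannot show whether they carry the difference. The source of the KO cycling level was not tested. Of the 78 WT cycling cells, 47 belonged to a cluster with endothelial genes, to which 0 of the clustered KO cells belonged. The WT and KO values of the cycling class, here and below, thus do not compare a single kind of cell.

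**Figure D1:**
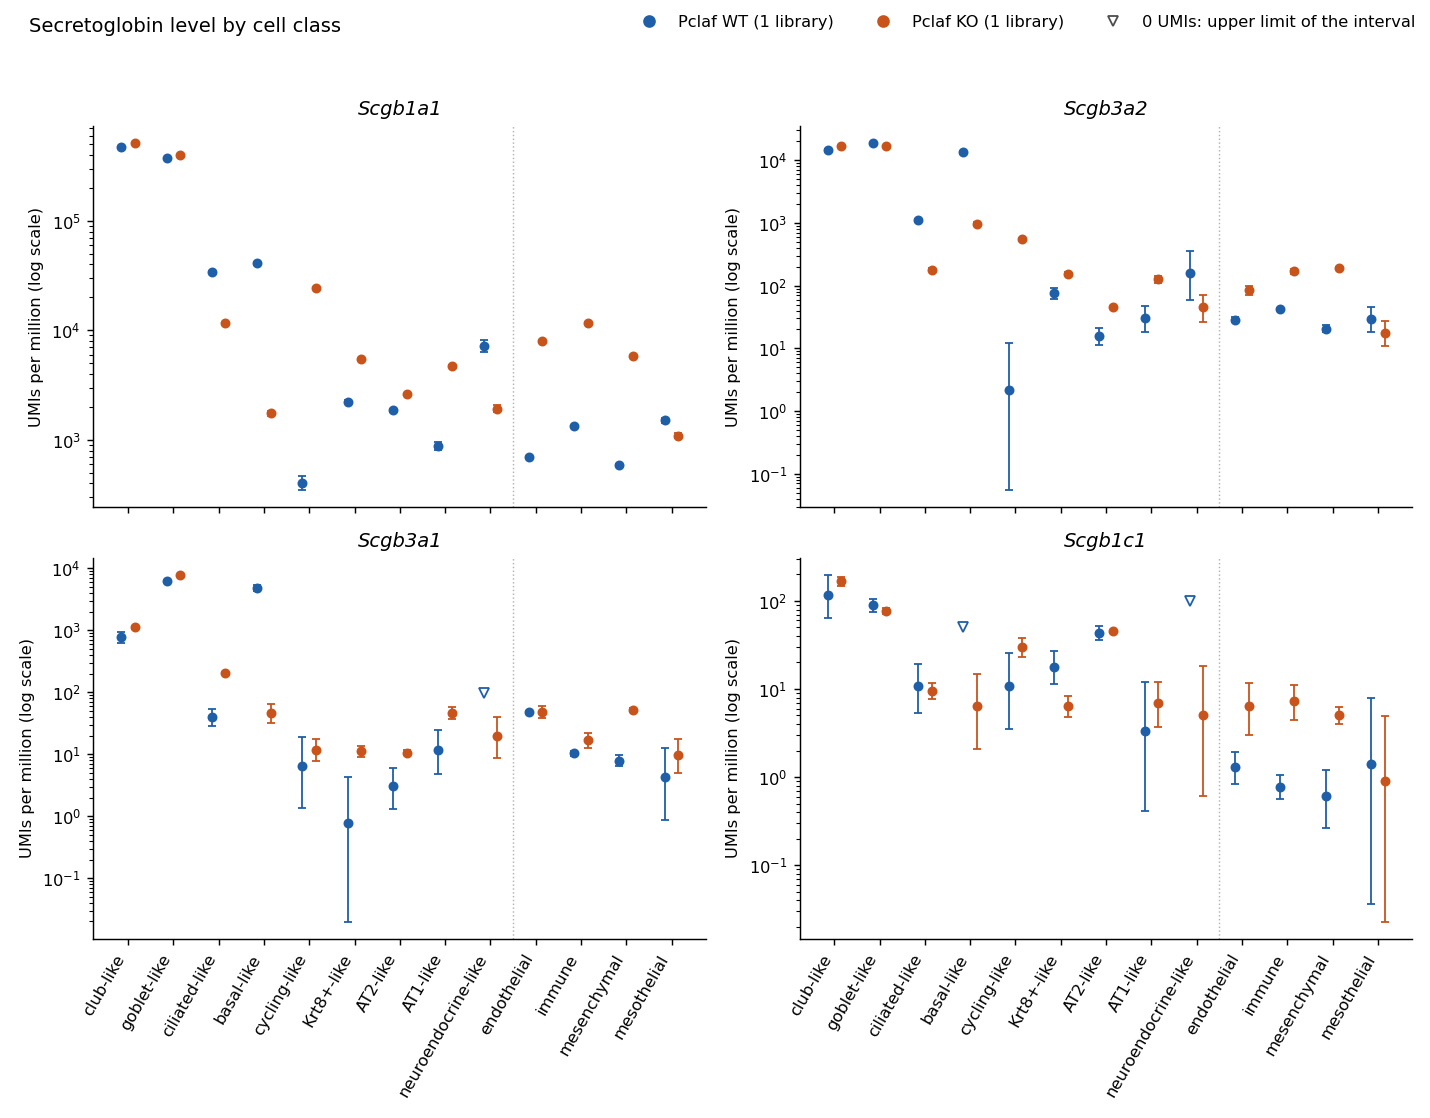
Level of each secretoglobin (CPM, log axis) in each cell class of the *Pclaf* WT and *Pclaf* KO libraries, with exact 95% Poisson intervals as bars; hollow triangles mark classes with 0 UMIs, at the upper limit of the interval, and the dotted line separates epithelial from non-epithelial classes. *Scgb1a1*, *Scgb3a2* and *Scgb3a1* peak in the secretory classes, and *Scgb1c1* has a second level in AT2-like cells, 43.5 and 45.0 CPM. The cycling class, drawn on the epithelial side, includes 47 WT cells of a cluster with endothelial genes, out of 78 WT cycling cells.

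Few barcodes carried most of these *Scgb1a1* UMIs. Among non-epithelial cells, 14 of 28466 in WT and 26 of 4489 in KO had at least 1000 *Scgb1a1* UMIs, and they held 63.8% and 71.1% of the class total, 1 and 9 of them called doublets. Once the top 1% of barcodes of each class and library was left out, non-epithelial cells were at 197 and 1426 CPM and AT2-like cells at 285 and 1191 CPM. The median non-epithelial cell had 0 *Scgb1a1* UMIs in WT and 5 in KO, and the median AT2-like cell 1 and 7. *Sftpc*, the surfactant protein of AT2 cells, was also higher in KO non-epithelial cells, with 1975 CPM in WT against 16691 CPM in KO. Whether few barcodes carried its UMIs there was not tested.

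The number of *Scgb1a1* UMIs in a cell that should lack the gene also moved with the depth of that cell. In KO endothelial cells, split by depth into 4 groups of equal size, the median was 3 UMIs in the shallowest and 7 in the deepest group, at median depths of 689 and 6130 UMIs. In KO mesenchymal cells it was 3 and 8, at 993 and 9267.5 UMIs, and in KO immune cells 4 and 10, at 594.5 and 9423 UMIs. KO AT2-like cells ran from 5 to 10 UMIs, at 3313 and 10630 UMIs. In WT the median of endothelial cells was 0 in all 4 groups.

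**Figure D2:**
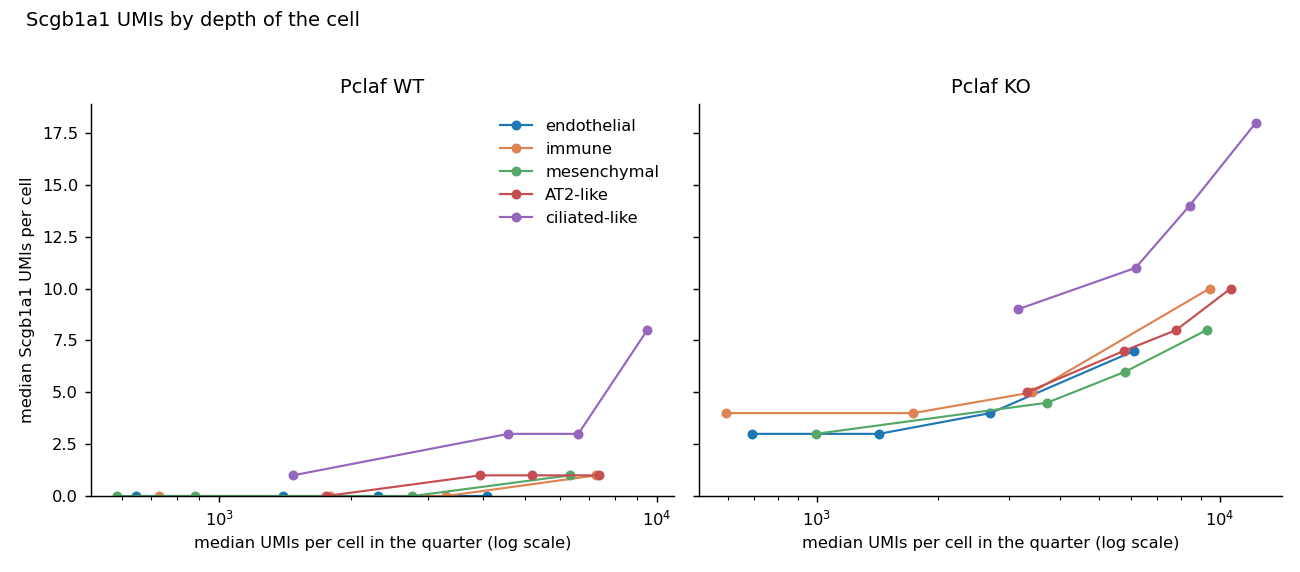
Median number of *Scgb1a1* UMIs per cell (y axis) in 4 equal groups of cells ordered by depth (x axis, median UMIs per cell, log axis) for 3 non-epithelial classes and for AT2-like and ciliated-like cells in each library. In KO every class climbs with depth and AT2-like cells (5 to 10 UMIs) stay close to non-epithelial cells, while ciliated-like cells (9 to 18 UMIs) lie above them.

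Ciliated-like cells carried more *Scgb1a1* than AT2-like or non-epithelial cells of like depth. They were at 34310 CPM (95% interval 33952 to 34671) in WT (178 cells) and 11660 CPM (95% interval 11591 to 11729) in KO (1231 cells). Of the WT sum, 93.5% came from 5 barcodes with at least 1000 *Scgb1a1* UMIs, none of them called a doublet, while 22.5% of all WT and 8.29% of all KO ciliated-like barcodes were called doublets. The levels were 10149 and 5236 CPM without the top 1%, which left some of the barcodes with at least 1000 UMIs in place. The thinned share was 59.0% (interval 51.0 to 66.7) in WT and 84.0% (interval 81.8 to 86.0) in KO, against 18.5% and 70.7% in non-epithelial cells, and 85.4% and 99.8% without thinning. The KO share differed little from that of KO endothelial cells, 81.7% (interval 77.5 to 85.4). In medians, KO ciliated-like cells of the depth group at 3150 UMIs had 9 *Scgb1a1* UMIs, where AT2-like cells at 3313 UMIs had 5, and those at 6176.5 UMIs had 11, where endothelial cells at 6130 UMIs had 7. *Foxj1*, the factor that drives motile cilia, was at 485 and 479 CPM in this class, and *Cyp2f2* at 1493 and 1503 CPM. The part of secretory cells captured in the same droplets was not tested.

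**Figure D3:**
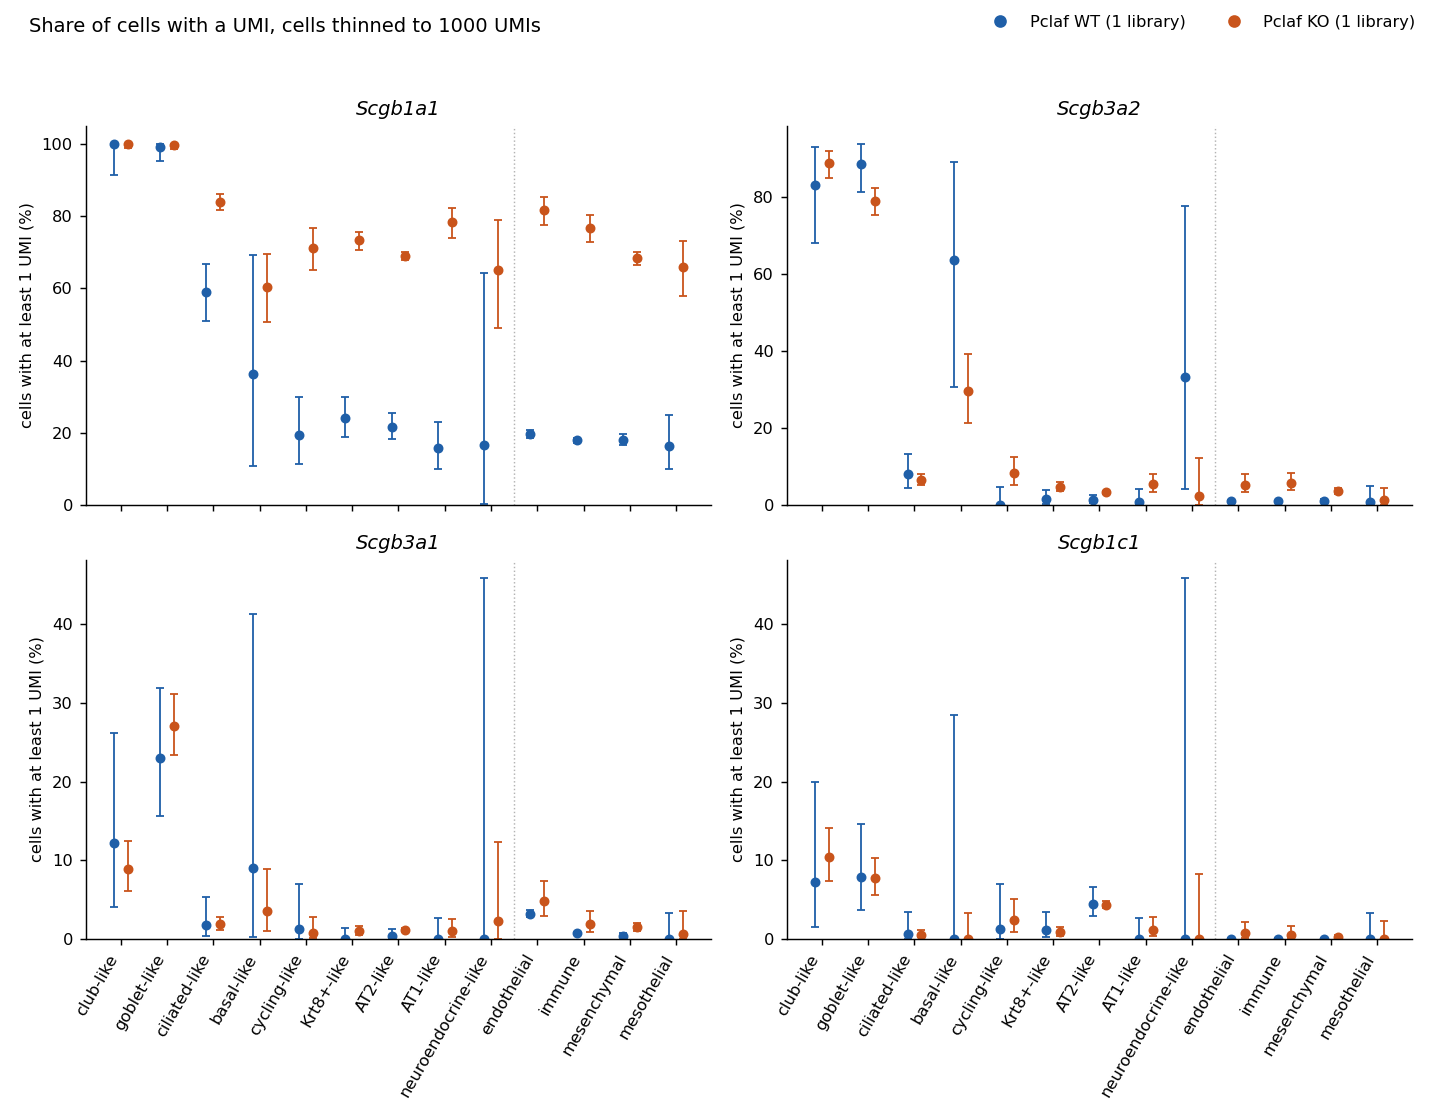
Share of cells with at least 1 UMI of each secretoglobin (y axis, percent) after every cell was thinned to 1000 UMIs, by class and library, with exact binomial 95% intervals. For *Scgb1a1* the non-epithelial cells as a whole lie at 18.5% in WT and 70.7% in KO, with ciliated-like cells at 59.0% and 84.0%, and for *Scgb1c1* AT2-like cells (4.47% and 4.38%) lie above all non-epithelial classes.

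*Scgb3a2* had its highest levels in the same secretory cells. Club-like cells were at 14407 CPM (95% interval 13733 to 15106) in WT and 16759 CPM (95% interval 16572 to 16948) in KO, and goblet-like cells at 18534 CPM (95% interval 18307 to 18764) and 17087 CPM (95% interval 16998 to 17177). A UMI was found in 87.0% and 90.4% of club-like and in 92.9% and 90.6% of goblet-like cells, and after thinning in 82.9% and 88.7% and in 88.5% and 78.9%. In non-epithelial cells it was at 35.7 and 169 CPM, with thinned shares of 1.05% and 4.09%. AT2-like cells were at 15.5 and 45.5 CPM, with thinned shares of 1.30% and 3.32%. Without thinning the shares were 2.64% and 13.3% in non-epithelial and 3.48% and 15.1% in AT2-like cells. Krt8+-like cells were at 75.6 and 155 CPM, AT1-like cells at 30.2 and 127 CPM, and ciliated-like cells at 1105 and 179 CPM. The log2 ratio of AT2-like over non-epithelial cells was -1.20 (interval -1.68 to -0.76) in WT and -1.90 (interval -1.98 to -1.82) in KO. Without the top 1% of barcodes it was 0.17 in WT and -0.71 in KO, so that no level above that of non-epithelial cells was detectable at this depth in KO, and in WT the direction turned with that choice. It also turned in WT at a clustering resolution of 0.4, to 0.38 (interval 0.14 to 0.61), and in KO the ratio was -0.94 without doublets. Over all genes with at least 50 UMIs, 37.3% in WT and 31.1% in KO were at least 2-fold lower in AT2-like than in non-epithelial cells, and 10.7% and 10.4% at least 2-fold higher.

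The amount of *Scgb3a2* relative to *Scgb1a1* varied among classes and between libraries. With the top 1% of barcodes left out there were 34.7 (interval 33.0 to 36.4) *Scgb3a2* UMIs per 1000 *Scgb1a1* UMIs in WT and 33.8 (interval 33.5 to 34.2) in KO club-like cells, and 45.9 (interval 45.3 to 46.6) and 42.8 (interval 42.6 to 43.0) in goblet-like cells. Endothelial cells had 38.9 (interval 33.1 to 45.4) and 22.9 (interval 17.7 to 29.3), immune cells 38.3 and 26.0, mesenchymal cells 34.0 and 27.3, and AT2-like cells 29.6 and 20.8. Ciliated-like cells had 32.9 and 20.7. Krt8+-like cells went the other way, with 17.0 (interval 8.73 to 29.8, from 12 UMIs) in WT and 39.5 (interval 36.4 to 42.8) in KO. The ratios of the 3 non-epithelial classes thus lay close to those of the secretory cells in WT and below them in KO.

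**Figure D4:**
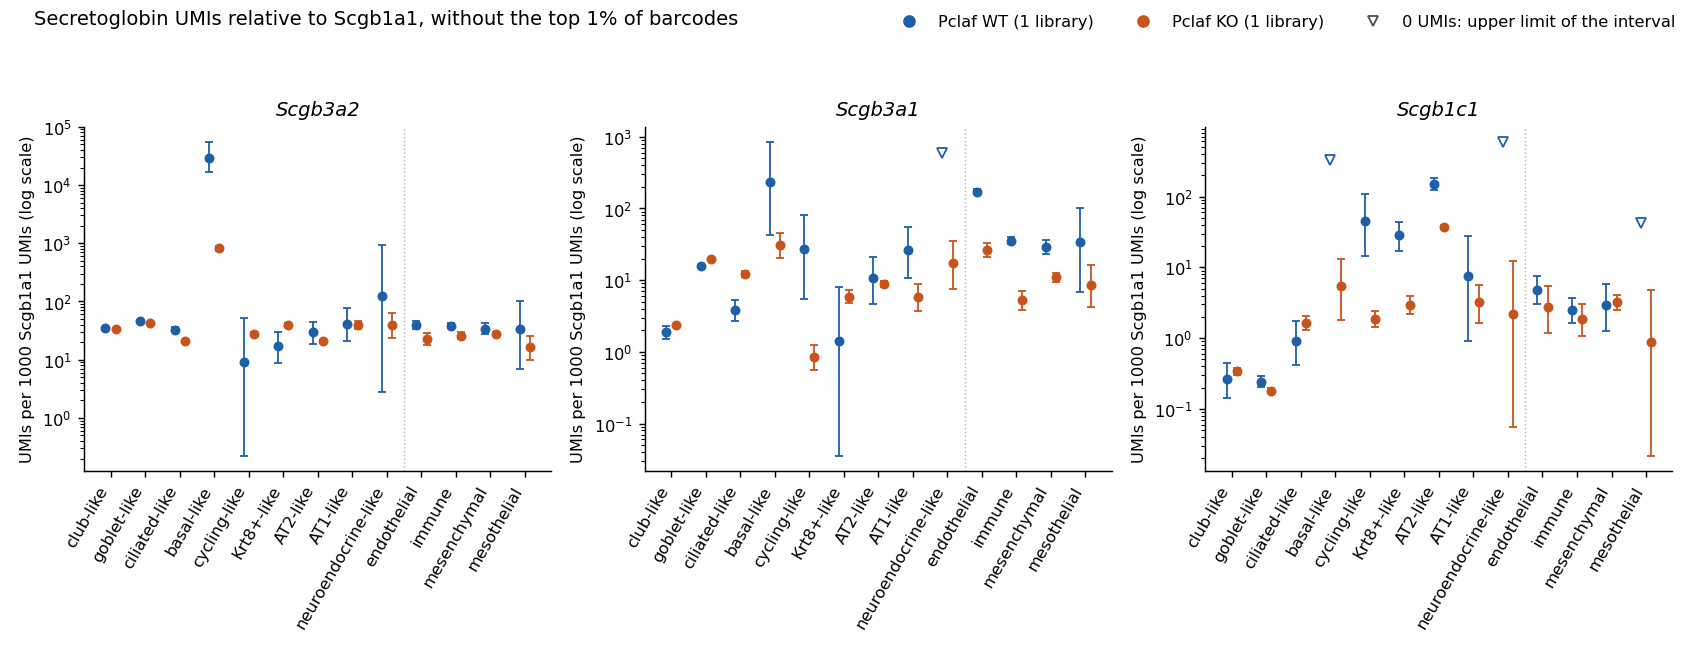
UMIs of *Scgb3a2*, *Scgb3a1* and *Scgb1c1* per 1000 *Scgb1a1* UMIs (log axis) in each class and library, without the top 1% of barcodes of each class, with exact 95% intervals; hollow triangles mark 0 UMIs at the upper limit. *Scgb3a2* is highest in basal-like cells, and *Scgb3a1* is high in WT endothelial cells (171) and *Scgb1c1* in AT2-like cells (151 and 37.5).

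Basal-like cells, marked by the keratin *Krt5* and the factor *Trp63* of airway stem cells, had far more *Scgb3a2* per *Scgb1a1* UMI than the classes above. They numbered 11 in WT and 111 in KO. In KO they had 973 CPM (95% interval 905 to 1045) of *Scgb3a2* and 1747 CPM (95% interval 1656 to 1842) of *Scgb1a1*. Per 1000 *Scgb1a1* UMIs, without the top 1% of barcodes, this came to 824 (interval 747 to 909) *Scgb3a2* UMIs. A *Scgb3a2* UMI was found in 53.2% of KO basal-like cells and in 29.7% (interval 21.4 to 39.1) after thinning, against 4.09% in KO non-epithelial cells. Levels differed among these cells: 29 had at least 5 *Scgb3a2* UMIs, with no doublet call and a median of 10 *Scgb1a1* UMIs, and 52 had none, with a median of 6.50 *Scgb1a1* UMIs. *Krt5* was at 771 CPM in the former and 592 CPM in the latter, and *Cyp2f2* at 4723 and 4598 CPM. The other basal markers examined went the other way, *Trp63* at 386 and 601 CPM and *Krt15* at 2313 and 2702 CPM. *Bpifa1*, an airway host-defence protein, was at 6286 and 688 CPM. In WT, 989 *Scgb3a2* UMIs fell on the 11 basal-like cells, 13410 CPM. A single cell held 616 of them, and 3001 of the 3014 *Scgb1a1* UMIs also fell on 1 cell.

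*Scgb3a1* had its highest level in the goblet-like class. Goblet-like cells were at 6254 CPM (95% interval 6122 to 6388) in WT and 7767 CPM (95% interval 7707 to 7827) in KO, and club-like cells at 782 CPM (95% interval 631 to 958) and 1113 CPM (95% interval 1066 to 1163). Of the library's *Scgb3a1* UMIs, 80.2% in WT and 91.9% in KO fell on goblet-like cells. It was not a gene of every goblet-like cell: 32.7% of WT and 43.4% of KO cells had a UMI, 23.0% and 27.1% after thinning, and single cells reached 2020 and 2303 UMIs. In non-epithelial cells the shares were 3.08% and 6.57%, and 1.41% and 1.89% after thinning. AT2-like cells were at 3.03 and 10.6 CPM, below the non-epithelial 18.2 and 44.5 CPM. For this gene the non-epithelial level is not a plain background. Endothelial cells, described below, gave 926 of the 1597 WT UMIs, and mesenchymal cells 835 of the 971 KO UMIs. WT immune and mesenchymal cells were at 10.3 and 7.91 CPM. Without the top 1% of barcodes AT2-like cells were at 3.07 and 10.5 CPM and non-epithelial cells at 13.6 and 16.3 CPM. Ciliated-like cells were at 40.1 and 205 CPM, AT1-like cells at 11.7 and 47.1 CPM, and cycling cells at 6.53 and 11.9 CPM. The 11 WT basal-like cells were at 4854 CPM, with 355 of 358 UMIs in 1 cell, and the KO ones at 46.0 CPM.

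The goblet-like cells rich in *Scgb3a1* were also high in goblet and host-defence genes. Goblet-like cells with at least 10 *Scgb3a1* UMIs (25 in WT and 129 in KO, median depth 10799 and 18044 UMIs) were set beside those with none (76 and 302, 11356 and 12679 UMIs), which is a description of cells picked by their *Scgb3a1* count, and values are per 1000000 UMIs outside the 4 secretoglobins. *Bpifb1*, a host-defence protein of airway secretions, was at 3930 (interval 3664 to 4209) in WT and 5218 (interval 5097 to 5341) in KO cells rich in *Scgb3a1*, against 0 (upper bound 6.78) and 10.5 in those without. *Reg3g*, an antimicrobial lectin, was at 4750 and 11092 against 0 and 99.3. *Tff2*, a trefoil peptide of mucus, was at 2844 and 3498 against 1.84 and 4.46, and the mucin *Muc5b* at 1704 and 2288 against 33.1 and 55.9. *Hp*, haptoglobin, went the other way, at 4132 and 6659 against 7982 and 10727. *Cyp2f2* differed little in KO, 6879 against 6692, and was 5484 against 6683 in WT. Among the secretoglobins, *Scgb3a2* was at 58458 and 66863 in the cells rich in *Scgb3a1*, against 17236 and 13253. *Scgb1a1* was at 509609 and 663777 against 626623 and 703430, and *Scgb1c1* at 96.6 and 101 against 159.9 and 139.8. The *Scgb3a2* level was thus more than 3-fold higher beside *Scgb3a1* in both libraries, while *Scgb1a1* and *Scgb1c1* were not. Of the 25 WT cells rich in *Scgb3a1*, 5 belonged to the cluster with immune genes named above, and of the 129 KO cells 0 did. Without that cluster, WT cells with at least 10 *Scgb3a1* UMIs had 4413 *Bpifb1*, 4626 *Reg3g*, 1800 *Muc5b* and 69285 *Scgb3a2* UMIs on the same scale, against 0, 0, 34.7 and 17954 in WT cells with none.

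Endothelial cells held *Scgb3a1* at a low level that was above that of immune cells in both libraries. They were at 47.6 CPM (95% interval 44.6 to 50.8) in WT (8331 cells) and 48.1 CPM (95% interval 37.9 to 60.2) in KO (517 cells). WT immune cells were at 10.3 CPM and WT mesenchymal cells at 7.91 CPM, a log2 ratio of 2.20 (interval 2.05 to 2.36) and 2.59 (interval 2.30 to 2.90). In KO the ratio to immune cells was 1.51 (interval 0.97 to 2.06), and that to mesenchymal cells -0.10 (interval -0.46 to 0.24), where 1 mesenchymal barcode held 576 of 835 UMIs. Without the top 1% of barcodes endothelial cells were at 38.5 and 49.0 CPM, immune cells at 6.58 and 16.5 CPM, and mesenchymal cells at 6.08 and 13.6 CPM. Thinned shares were 3.19% (interval 2.77 to 3.66) and 4.83% (interval 2.94 to 7.45) for endothelial cells against 0.756% and 1.96% for immune and 0.460% and 1.52% for mesenchymal cells. Unthinned shares were 5.86% and 9.09%, 1.99% and 5.28%, and 1.74% and 6.43%, at median depths of 1827, 2359 and 1278 UMIs in WT. *Scgb1a1* showed no such order among these classes, at 225, 185 and 208 CPM in WT without the top 1%. The WT endothelial ratio of 171 (interval 158 to 185) *Scgb3a1* UMIs per 1000 *Scgb1a1* UMIs was above that of WT goblet-like cells, 15.7 (interval 15.3 to 16.1), while *Scgb3a2* was at 38.9. In KO the endothelial ratio was 26.4 (interval 20.7 to 33.2) and that of goblet-like cells 19.8.

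The WT endothelial barcodes with most *Scgb3a1* were set beside those with none. In the 26 barcodes that held at least 5 *Scgb3a1* UMIs, none was called a doublet, and the median cell had 0 *Scgb1a1* UMIs. The endothelial adhesion molecule *Pecam1* was detected in 100% and the tight junction gene *Cldn5* in 88.5%. In WT endothelial barcodes with 0 *Scgb3a1* UMIs they were detected in 79.2% and 77.9%, at a median depth of 1793 UMIs against 2877. Both genes are among the markers that named this class, so their detection was in part fixed by the naming. Of the 7843 barcodes with none, 324 were called doublets, so 0 calls among 26 say little. The epithelial gene *Epcam* gave 1 UMI, *Bpifb1* 1 and *Muc5b* 0 over the 26 barcodes. The highest held 28 *Scgb3a1* UMIs. Of the other WT endothelial barcodes, 327 held 1 *Scgb3a1* UMI and 135 held 2 to 4. *Scgb1a1* was at 3429 and 223 CPM in them, against 548 CPM in those with none, with a median of 0 UMIs in each group. In KO, 2 endothelial barcodes held at least 5 *Scgb3a1* UMIs, 1 of them called a doublet, with 1 *Epcam* UMI over both. *Scgb3a1* was found in several endothelial clusters. In WT it was at 52.9 CPM in the cluster led by *Bmp6* and *Kit*, 42.6 CPM in that led by *Gm30382* and *Prickle2*, 64.0 CPM in that led by *Epas1* and *Hpgd*, and 92.0 CPM in that led by *Adgrl3* and *Lyve1*. A small cluster of 48 WT cells led by the lymphatic genes *Ccl21a*, *Mmrn1* and *Prox1* had 0 *Scgb3a1* UMIs, which allows up to 25.2 CPM by the exact interval. At these levels most endothelial cells gave no UMI, and 926 UMIs in WT and 76 in KO carry the result.

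*Scgb1c1* was the only one of the 4 with a level in AT2-like cells above that of non-epithelial cells in both libraries. AT2-like cells were at 43.5 CPM (95% interval 36.0 to 52.3) in WT and 45.0 CPM (95% interval 43.1 to 47.0) in KO, against 0.866 and 5.23 CPM in non-epithelial cells, a log2 ratio of 5.65 (interval 5.22 to 6.09) and 3.11 (interval 2.83 to 3.39). Of all genes with at least 50 UMIs, 10.7% and 10.4% were at least 2-fold higher in this comparison. A UMI was found in 16.2% of WT and 23.9% of KO AT2-like cells, and after thinning in 4.47% (interval 2.88 to 6.58) and 4.38% (interval 3.90 to 4.91), against 0.0374% and 0.372% of non-epithelial cells. AT2-like cells held 31.2% of the WT and 62.1% of the KO UMIs of this gene. The UMIs were scattered, with at most 6 in a cell. Secretory cells were higher, at 118 CPM (95% interval 64.3 to 197) and 168 CPM (95% interval 149.9 to 188) in club-like and 89.1 CPM (95% interval 74.0 to 106) and 76.3 CPM (95% interval 70.5 to 82.5) in goblet-like cells, but few UMIs stand behind the WT club-like value, 14 in all.

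The AT2-like signal of *Scgb1c1* was large beside that of *Scgb1a1*. Per 1000 *Scgb1a1* UMIs, without the top 1% of barcodes, AT2-like cells had 151 (interval 122 to 184) *Scgb1c1* UMIs in WT and 37.5 (interval 35.9 to 39.2) in KO, against 0.264 and 0.342 in club-like and 2.51 and 1.85 in immune cells. The median AT2-like cell with 1 *Scgb1c1* UMI had 1 *Scgb1a1* UMI in WT and 8 in KO, and the median cell with none had 1 and 7. Within AT2-like cells, the cluster led by the acute-phase gene *Lcn2* with *Apoc1* and *Sfta2* had the highest level, 146 CPM (interval 83.4 to 237, 82 cells) in WT and 107 CPM (interval 91.4 to 125, 563 cells) in KO. These cells were shallow, with medians of 1199 and 2306 UMIs, and low in *Malat1*, 2891 and 984 CPM. The other AT2-like clusters ran from 32.8 to 49.2 CPM in WT and from 38.9 to 46.7 CPM in KO. The annotation places *Gm45785* and *C330022C24Rik* across *Scgb1c1* on the opposite strand, and they held between 0 and 21 UMIs in club-like, goblet-like and AT2-like cells. Krt8+-like cells were at 17.9 CPM (95% interval 11.4 to 26.9) in WT and 6.42 CPM (95% interval 4.84 to 8.35) in KO, the latter near the non-epithelial level. Ciliated-like cells were at 10.7 and 9.49 CPM, AT1-like cells at 3.36 and 6.95 CPM, and cycling cells at 10.9 and 30.0 CPM.

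**Figure D5:**
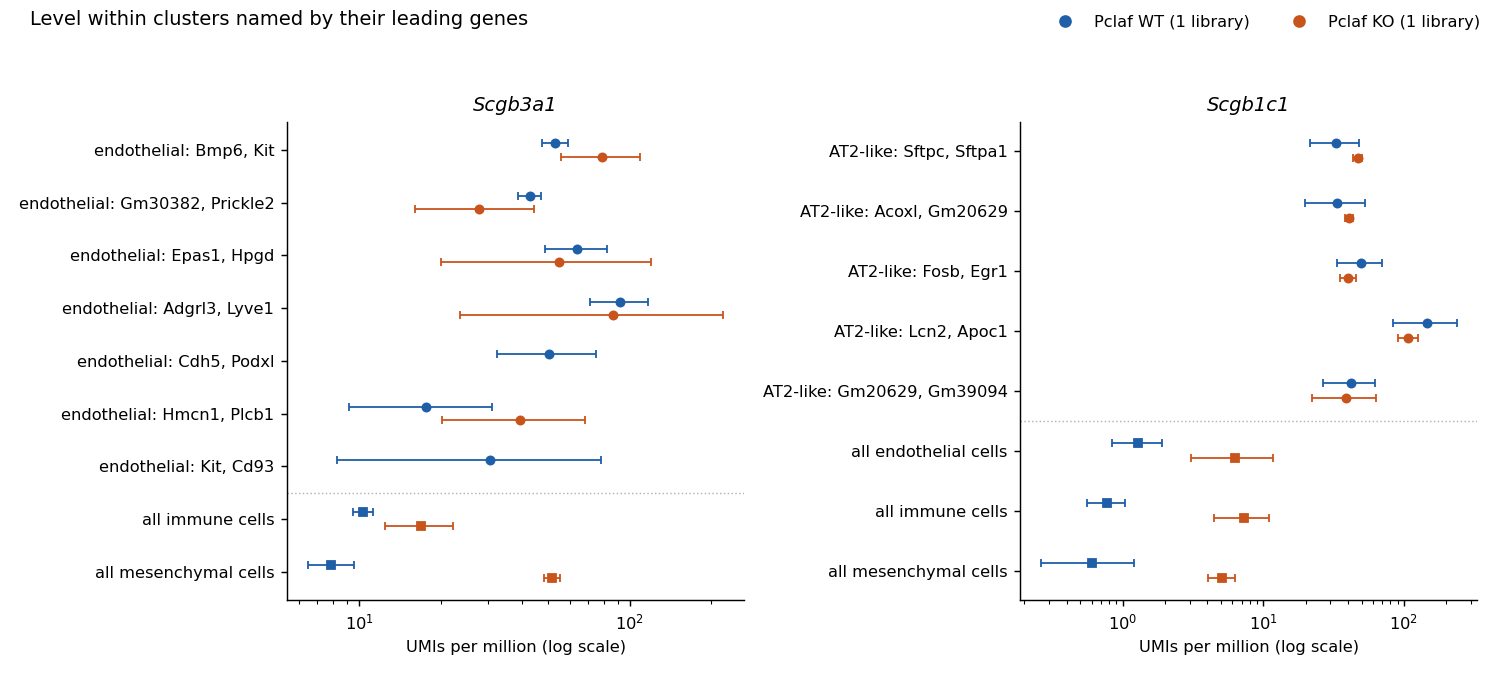
Level (CPM, log axis) of *Scgb3a1* in endothelial clusters and of *Scgb1c1* in AT2-like clusters, each named by its 2 leading genes, with whole non-epithelial classes as squares and exact 95% Poisson intervals; clusters of at least 80 cells are shown and points of fewer than 20 cells are left out. All AT2-like clusters lie above the non-epithelial classes for *Scgb1c1*, with the *Lcn2*, *Apoc1* cluster highest, 146 and 107 CPM.

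Between the libraries, the secretoglobins of the secretory cells themselves differed by less than 2-fold in CPM. The log2 ratio of KO over WT in club-like cells was 0.13 (interval 0.12 to 0.14) for *Scgb1a1*, 0.22 (interval 0.15 to 0.29) for *Scgb3a2*, 0.51 (interval 0.21 to 0.83) for *Scgb3a1* and 0.51 (interval -0.25 to 1.40) for *Scgb1c1*. In goblet-like cells it was 0.10 (interval 0.09 to 0.10), -0.12 (interval -0.14 to -0.10), 0.31 (interval 0.28 to 0.35) and -0.22 (interval -0.51 to 0.07). In neither class was a member at least 2-fold apart, 0 of 4 higher and 0 of 4 lower, where 9.18% of all genes with at least 50 UMIs were at least 2-fold higher and 9.53% lower in club-like cells, and 2% and 4.75% in goblet-like cells. With a single library each, these ratios compare the libraries and not the genotypes. The interval of *Scgb1a1* is narrow only because its counts are large. With TMM scaling over all genes with a UMI, the club-like ratio became 1.14 for *Scgb1a1* and 1.23 for *Scgb3a2*. In CPM the median log2 ratio of the 1416 club-like genes with at least 50 UMIs was already -0.04. Per UMI outside the secretoglobins the ratios were 0.27 and 0.35, and why TMM differed was not tested. With no upper limit on genes per cell the goblet-like ratio of *Scgb3a1* turned to -0.04. Without the top 1% of barcodes the goblet-like ratio of *Scgb3a2* was -0.0040 (interval -0.025 to 0.017).

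In pooled non-epithelial cells all 4 genes were higher in the KO library. This pool held 15476 immune, 8331 endothelial and 4550 mesenchymal cells in WT, against 720, 517 and 3097 in KO. Within endothelial, immune and mesenchymal cells the log2 ratio was 3.51, 3.14 and 3.30 for *Scgb1a1*. For *Scgb3a1* it was 0.01 (interval -0.34 to 0.35), 0.71 and 2.71, and 0.35, 1.33 and 1.16 without the top 1% of barcodes. In mesothelial cells *Scgb1a1* had -0.46, and 3.03 without that top 1%. The part of this mix in the pooled ratios was not tested. In non-epithelial cells *Scgb1a1* had a log2 ratio of 2.59 (interval 2.58 to 2.60), *Scgb3a2* 2.25 (interval 2.18 to 2.31), *Scgb3a1* 1.29 (interval 1.18 to 1.41) and *Scgb1c1* 2.59 (interval 2.16 to 3.03), so that 4 of 4 were at least 2-fold higher in KO, where 17.1% of all genes with at least 50 UMIs were. *Sftpc*, which comes from AT2 cells, was also higher there, as given above. Without the top 1% of barcodes the ratio of *Scgb3a1* was 0.26. The ratio of *Scgb1a1* was 1.93 without doublets and 1.81 with all KO cells clustered. In AT2-like cells the ratios were 0.48 (interval 0.44 to 0.52) for *Scgb1a1*, 1.55 (interval 1.10 to 2.03) for *Scgb3a2* and 1.81 (interval 0.82 to 3.03) for *Scgb3a1*, against 0.05 (interval -0.22 to 0.33) for *Scgb1c1*. Thus 2 of 4 were at least 2-fold higher and 0 of 4 lower, beside 2.45% and 3.35% of all genes. This count rests on few WT barcodes and UMIs. A single barcode of 574 held 75.6% of the WT AT2-like *Scgb1a1* sum, and *Scgb3a1* had 8 WT UMIs. In Krt8+-like cells the ratios were 1.28 (interval 1.23 to 1.34) for *Scgb1a1*, 1.04 (interval 0.74 to 1.35) for *Scgb3a2*, 3.86 (interval 1.35 to 9.18) for *Scgb3a1* and -1.48 (interval -2.21 to -0.71) for *Scgb1c1*. *Scgb3a1* was at 0.779 and 11.3 CPM in this class, from only 1 UMI in WT and 97 UMIs in KO. At least 2-fold higher in KO Krt8+-like cells were 2.08% and lower 1.77% of all genes, and 3 of 4 members were higher and 1 of 4 lower. With the top 1% of barcodes left out, the Krt8+-like ratio of *Scgb3a2* was 2.98, from 9.51 and 75.1 CPM, and that of *Scgb1a1* 1.76. The AT2-like ratio of *Scgb1a1* was 2.06, and that of *Scgb1c1* 0.05, without the top 1% of barcodes. The summed secretoglobins were 0.784% of all UMIs in WT and 4.87% in KO, and whether this is what reached the other cells was not tested.

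Ciliated-like cells went against that pattern for *Scgb1a1* and *Scgb3a2*. The ratios were -1.56 (interval -1.57 to -1.54) for *Scgb1a1* and -2.63 (interval -2.73 to -2.51) for *Scgb3a2*, both at least 2-fold lower in KO, 2.35 (interval 1.91 to 2.84) for *Scgb3a1* and -0.18 (interval -1.09 to 0.87) for *Scgb1c1*. For *Scgb3a1*, 1 KO barcode held 1327 of 1922 UMIs. Thus 2 of 4 were lower and 1 of 4 higher by at least 2-fold. At least 2-fold lower were 2.89% and higher 3.03% of all genes with at least 50 UMIs. These values rest on few barcodes, and without the top 1% they were -0.95, -1.62, 0.70 and -0.11. That trim left 176 of 178 WT and 1218 of 1231 KO barcodes. Those with at least 1000 *Scgb1a1* UMIs numbered 5 and 23 and held 93.5% and 70.5% of the sums. Some of them thus stayed in the trimmed values, which do not settle the direction. A class sum does not separate the number of cells with the transcript from the amount per cell. Counted by cell, *Scgb1a1* ran in the opposite order. The median ciliated-like cell had 3 *Scgb1a1* UMIs in WT and 13 in KO, and the share of cells with a UMI was higher in KO, also after thinning.

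The other secretory genes give the setting of the secretoglobins in these cells. Lists were compared between goblet-like and club-like cells per UMI outside the secretoglobins, over genes with at least 50 UMIs. Of the goblet and host-defence secretions, 11 of 16 in WT and 14 of 21 in KO were at least 2-fold higher in goblet-like cells, with a median log2 ratio of 2.29 and 3.20. Of the club secretory and detoxification genes, 10 of 24 and 11 of 25 were, with medians of 0.58 and 0.91. Of the transcription factors of secretory cells, 10 of 16 and 13 of 18 were, with medians of 1.60 and 1.83. No gene of these lists was at least 2-fold lower. Over all genes tested 52.1% in WT and 62.7% in KO were at least 2-fold higher and 9.07% and 3.78% lower, with medians of 1.09 and 1.53. The median of the club list was thus below that of all genes and the median of the goblet list above it. The goblet list shares genes with the markers by which the goblet-like class was named, so its direction is in part fixed by the naming, and its share past 2-fold in KO was close to that of all genes.

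Single genes of these lists show the contrast. *Retnla*, a resistin-like secreted protein, was high in both classes, at 14844 and 15947 CPM in club-like and 15469 and 11620 CPM in goblet-like cells. *Cbr2*, the carbonyl reductase of club cells, was at 4867 and 4908 CPM against 4234 and 4285 CPM. *Bpifa1* was at 25.2 and 214 CPM in club-like and 1975 and 2629 CPM in goblet-like cells. *Nkx2-1*, the lung lineage factor whose core motif was searched above, was at 50.4 and 42.2 CPM against 133 and 129 CPM. Between the libraries, 1 of 25 club genes and 5 of 22 goblet and host-defence genes were at least 2-fold higher in KO goblet-like cells and 0 were lower in either list, beside the background of 2% and 4.75%. *Reg3g*, 1 of these 5 genes, was at 719 and 1885 CPM, a log2 ratio of 1.39. Of the transcription factors, 0 of 18 were at least 2-fold apart. In club-like cells 2 of 23 club genes were at least 2-fold higher and 3 lower, and 2 of 11 goblet and host-defence genes higher and 1 lower, beside 9.18% and 9.53% of all genes in that class.

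Genes with the most similar pattern differed from member to member. Likeness was the Pearson correlation of log2(CPM + 1) over 26 points, 13 classes in each of 2 libraries, among 13244 genes. The points share libraries and depth, and those of WT basal-like and neuroendocrine-like cells rest on 11 and 6 cells. Some genes named here are also markers that named the classes, so likeness is a description. *Scgb1a1* was most like *Retnla* (r = 0.94) and *Scgb3a2* (r = 0.93), followed by *B430010I23Rik* (0.89), *Tff2* (0.85) and *Hp* (0.85). *Scgb3a2* was most like *Scgb1a1*, then *Lrrc26* (0.90), *Gabrp* (0.90), *Cyp2f2* (0.87) and *Tff2* (0.86). *Scgb3a1* was most like *Bpifb1* (0.94), *Tff2* (0.92), *Reg3g* (0.90), *Agr2* (0.85) and *Bpifa1* (0.85). All of these are goblet markers by which clusters were named, so this likeness is in part fixed by the naming. *Scgb1c1* had another set, *Cckar* (0.87), *Sfta2* (0.84), *Ooep* (0.83) and *Gm26894* (0.83), and its correlation was 0.64 with *Scgb1a1*, 0.49 with *Scgb3a2* and 0.43 with *Scgb3a1*.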

How the data were processed

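The authors deposited, per genotype, a table of UMI counts per gene and barcode, not normalized. Its header names Cell Ranger 5.0.0, while the submitters' processing notes name Cell Ranger 3.1.0, STAR and GRCm38. Barcodes were required to show more than 200 and fewer than 5000 genes, with a mitochondrial share below 20%, and a gene had to be seen in at least 3 cells. Both libraries were clustered with Seurat 5.3.0 in R 4.3.3 on 2000 variable genes without the secretoglobins, with 10 principal components, 20 neighbors and resolution 0.8, in 5 rounds. Of the KO cells 1 in 6 was drawn, and the others were projected. Clusters were named by marker lists. Names rebuilt in this way may differ from those of the study. All genes of clustered cells count as used, so class levels are descriptions. Scrublet in scanpy 1.11.5 marked doublets at a rate of 0.8% per 1000 barcodes. They were kept, and left out in an alternative.

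Levels are class sums per 1000000 UMIs (CPM) with exact 95% Poisson intervals, and shares have exact binomial intervals. A ratio with a count of 0 used 0.5 counts. Cells were thinned to 1000 UMIs for shares. Calls of 2-fold used genes with at least 50 UMIs in the compared groups. Likeness used genes with at least 500 UMIs and named the 5 most similar per member, except for 1 that is not reported here. The text names the 4 members throughout, *Sftpc* as a reference for free RNA, *Pclaf*, and list genes by counts and examples. Some of the examples were chosen after their values were seen. TMM factors came from edgeR 4.0.16. Python 3.11.15, numpy 2.4.6, scipy 1.17.1 and matplotlib 3.10.9 did the rest. The members and lists were chosen with earlier results of these data known. Scripts were tested on simulated data.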

Additional observations from a re-analysis of the deposited data

Results flagged for a closer look

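In the club-like, goblet-like, ciliated-like, AT2-like and Krt8+-like classes, genes with at least 50 UMIs in each group compared and an interval that leaves out 0 gave 3 values opposite in direction to the same gene in non-epithelial cells. *Scgb1a1* in ciliated-like cells had a KO over WT log2 value of -1.56, against 2.59 in non-epithelial cells. *Scgb3a2* had -2.63 in ciliated-like cells and -0.12 in goblet-like cells, against 2.25 in non-epithelial cells. With 1 library per genotype the difference between classes was not tested. Without the top 1% of barcodes of each class the goblet-like value was -0.0040 (interval -0.025 to 0.017), which takes in 0. The ciliated-like values without it were -0.95 and -1.62. Some barcodes with very many *Scgb1a1* UMIs stayed in after that trim, and the median ciliated-like cell had more *Scgb1a1* UMIs in KO. No group held enough libraries to look for a library apart from the others. Below that number of UMIs, *Scgb1c1* in Krt8+-like cells had -1.48 against 2.59, from 23 WT and 55 KO UMIs. In classes not searched, which held few WT cells or 1 dominant barcode, *Scgb1a1* had -4.55 in basal-like, -1.89 in neuroendocrine-like and -0.46 in mesothelial cells, and 2.43, 2.13 and 3.03 without the top 1% of barcodes. *Scgb3a2* and *Scgb3a1* had -3.78 and -6.72 in basal-like cells, and -2.69 and -0.47 without it.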

How the results depend on the processing

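No paired analysis was possible because each genotype has 1 library and no result comes from a test. Over 6 results and 83 alternatives, 34 values stayed within the counting interval of the reported one, 44 moved beyond it and 5 reversed, and unless the setting itself removes cells the cause was not tested. For *Scgb1a1* in club-like cells (0.13, KO over WT) the log2 ratio was 0.10 with mitochondrial shares under 10%, 0.095 with at least 500 genes, 0.16 with all KO cells clustered, 0.18 at resolution 1.2, 0.16 with secretoglobins among the variable genes, 0.023 after thinning and 1.14 with TMM factors. For *Scgb3a2* in club-like cells (0.22) it was 0.34 with at least 500 genes, 0.35 with all KO cells clustered, 0.022 and -0.020 at resolutions 0.4 and 1.2, -0.0079 with secretoglobins among the variable genes, 0.030 after thinning and 1.23 with TMM factors. For *Scgb3a1* in goblet-like cells (0.31) it was -0.037 with no upper limit on genes, 0.17 with all KO cells clustered, 0.21 at resolution 0.4, 0.24 after thinning and 0.59 with TMM factors. For *Scgb1a1* in non-epithelial cells (2.59) it was 2.63 with mitochondrial shares under 10%, 2.51 with at least 500 genes, 1.93 without doublets, 1.81 with all KO cells clustered, 2.39 at resolution 0.4, 2.41 with secretoglobins among the variable genes, 2.54 outside mitochondrial and ribosomal protein genes, 2.76 after thinning and 2.55 with TMM factors. *Scgb3a2* in AT2-like over non-epithelial cells was, in WT (-1.20), -2.08 with mitochondrial shares under 10%, 0.38 at resolution 0.4 and -0.70 after thinning, and in KO (-1.90) -1.82 with at least 500 genes, -1.64 with no upper limit on genes, -0.94 without doublets, -2.54 with all KO cells clustered, -1.48 and -2.10 at resolutions 0.4 and 1.2 and -1.29 after thinning.

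Other alternatives were chosen after seeing the data. Per UMI outside the secretoglobins, *Scgb1a1* and *Scgb3a2* in club-like cells had 0.27 and 0.35 and *Scgb3a1* in goblet-like cells 0.38. Without the goblet-like cluster that holds immune genes, *Scgb3a1* in goblet-like cells had 0.27. Without the barcodes of both libraries *Scgb3a2* in club-like cells had 0.30. With the top 1% of barcodes left out, *Scgb1a1* had 0.17 in club-like and 2.86 in non-epithelial cells, *Scgb3a2* 0.14 in club-like cells, *Scgb3a1* 0.44 in goblet-like cells, and *Scgb3a2* in AT2-like over non-epithelial cells 0.17 in WT and -0.71 in KO. The 54 WT club-like cells and 113 WT goblet-like cells limit every comparison of secretory cells.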
